A study of Mus musculus with 20 samples.

Results

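The 34 genes described here encode subunits of glutamate, GABA and glycine receptors, and they were taken by name from the 23260 genes of the deposited count table. All 34 were found. They comprise 4 AMPA, 4 kainate, 6 NMDA and 6 metabotropic glutamate receptor genes, 10 GABA-A receptor genes and 4 glycine receptor genes. Their unique molecular identifier (UMI) counts were summed over the cells of each library and of each cell type in the authors' annotation, so that a library, not a cell, was the unit of every comparison. Levels are given as CPM, that is, UMIs of the gene per 1000000 UMIs of that cell type in that library.

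The libraries came from retinal explants of CD1 wildtype mice, a retina kept as a piece in culture, that had been electroporated with a construct and dissociated with papain, after which GFP-positive cells were isolated and run as 3' single-cell RNA libraries. By the sample titles there were 8 groups: at postnatal day 2 (P2) and at postnatal day 5 (P5), a GFP control construct with 4 libraries each, and MEIS1, MEIS2 and a 50:50 combination of both with 2 libraries each. MEIS1 and MEIS2 are homeodomain transcription factors of the TALE class, and every explant, control included, carried an electroporated construct. The labels differ among themselves: the design text calls the factors NR2F1 and NR2F2 and gives 2 or 5 days as treatment times, the treatment labels name MEIS1 for all P2 single-construct libraries and MEIS2 for all P5 ones, and the start of the cell barcodes disagrees with the library name in 10 of the 20 libraries. Groups below follow the titles. The constructs' own genes follow them too: in progenitors, Meis1 stood at 164 to 354 CPM in P2 controls and 184 to 207 CPM in P5 controls, at 2099 to 3750 CPM with MEIS1, at 700 to 1001 CPM with the combination and at 185 to 344 CPM with MEIS2. Meis2 stood there at 34.6 to 197 CPM in controls, at 848 to 1830 CPM with MEIS2, at 671 to 1588 CPM with the combination and at 45.7 to 102 CPM with MEIS1. The labels do not say whether replicates were separate cultures or litters, so the tests measure the spread between libraries, which may be technical.

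Glutamate is the transmitter that photoreceptors and bipolar cells release, and GABA and glycine are the transmitters of amacrine and horizontal cells. AMPA, kainate and NMDA receptors are cation channels built from several subunits, metabotropic glutamate receptors act through G proteins, and GABA-A and glycine receptors are chloride channels. In the early postnatal mouse retina, progenitors are still dividing, rods and bipolar cells are being born, amacrine cells are already postmitotic, and synapses of the inner retina are forming. Receptor transcripts are also known in progenitors before synapses exist.

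The table held 79009 cells, and the libraries ranged from 1625 to 17739 cells and from 2376875 to 141540352 UMIs. P2 MEIS2 replicate 2 stood apart, with a median of 992 UMIs per cell and 10.0% of UMIs from the nuclear RNA Malat1, against a highest median of 14199 UMIs per cell among the libraries. P5 control replicate 1 had a median of 9.95% mitochondrial UMIs per cell. Pairs of libraries shared at most 30 cell barcodes. Rods, cones, bipolar cells and amacrine cells held the summed markers of their own type at a higher level than those of any other type. Control progenitors, however, held Müller glia markers at 5238 CPM beside progenitor markers at 1805 CPM, and control neurogenic cells held them at 1720 CPM beside neurogenic markers at 1702 CPM. In the same way the 39 control cells named horizontal cells held amacrine markers at 1789 CPM and ganglion cell markers at 1077 CPM beside horizontal cell markers at 1398 CPM, and the 133 control cells named Müller glia held astrocyte markers at 425 CPM beside Müller glia markers at 6554 CPM. Levels in those rare types are given as descriptions only.

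Among the common types (5 at P2, where bipolar cells were too few, and 6 at P5), amacrine cells held the highest mean level of 26 of the 34 genes in P2 controls and of 22 in P5 controls. Starburst, horizontal and Müller glia cells are left out of this order. In P2 controls cones were highest for 6 genes, progenitors and rods for 1 each, and in P5 controls bipolar cells and cones for 5 each and progenitors for 2. With libraries of both ages pooled, which gives 5 bipolar libraries (1 from P2) and 6 cone libraries (2 from P5) beside 8 of each other type, amacrine cells were highest for 21 genes, bipolar cells for 8, cones for 2, progenitors for 2 (Grm7 and Glrb) and neurogenic cells for 1 (Grin2c, at 0.626 CPM). Since the authors' clusters were built from the same counts, the differences between cell types are descriptions without a test. For 5 genes, Gria4, Grik2, Gabra3, Glra2 and Glra3, every control amacrine library was above every library of the next highest type. For the other 16 genes led by amacrine cells the libraries overlapped with those of the next type, so the order of neighbouring types was within their spread. The shares of all genes highest in amacrine cells, or apart in this way, are not given here. These counts therefore cannot show a trait particular to receptor genes.

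**Figure D1:**
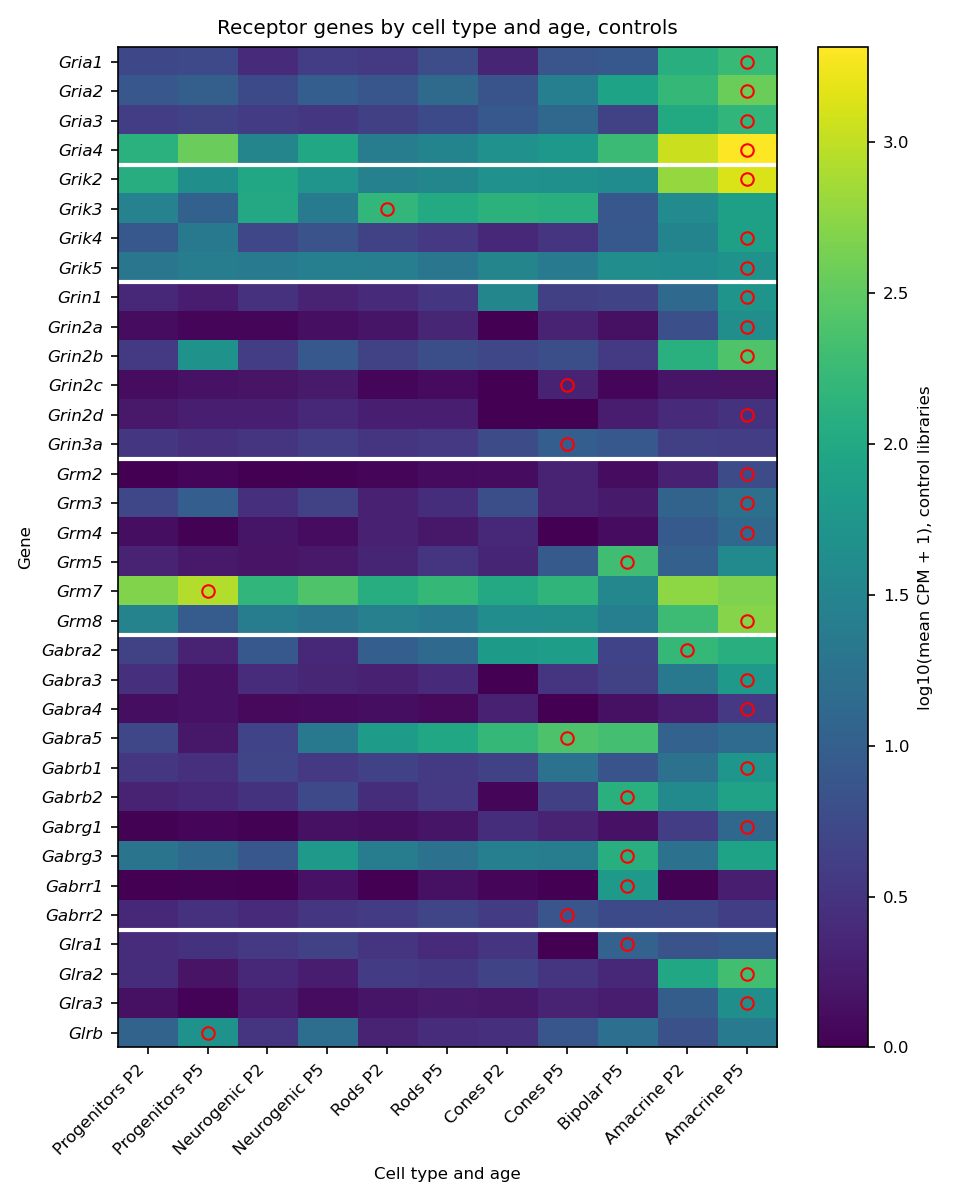
Mean level of each of the 34 receptor genes (rows, with white lines between the receptor classes) in each cell type of the control libraries at P2 and P5 (columns), as log10 of CPM plus 1, with a red circle on the highest column of each row. Most circles lie in the amacrine columns, while Gabrr1 and Grm5 are highest in P5 bipolar cells and Gabra5 in P5 cones, next to P5 bipolar cells.

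The AMPA receptor genes, which encode the subunits of the fast glutamate-gated channel, were all highest in amacrine cells among the 6 common types. Gria4 stood at 1817, 1400, 567 and 688 CPM in amacrine cells of the 4 P2 controls and at 2441, 2022, 1210 and 2571 CPM in those of the 4 P5 controls, and the ages overlapped. Gria1 averaged 143 ± 117 CPM over the 8 control amacrine libraries (SD, n = 8), Gria2 averaged 266 ± 227 CPM and Gria3 averaged 127 ± 101 CPM. In the other 5 common types no mean of Gria1 or Gria3 at either age exceeded 22.0 CPM, and Gria4 averaged in progenitors 131 ± 47.6 CPM at P2 and 364 ± 80.8 CPM at P5 (SD, n = 4 each).

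Among kainate receptor genes, whose products form a second class of glutamate-gated channel, the types were split. Grik2 averaged 986 ± 601 CPM in amacrine cells (SD, n = 8). Grik3 was instead high in photoreceptors and in P2 neurogenic cells: it averaged 155 ± 30.6 CPM in P2 rods and 134 ± 82.7 CPM in P2 cones (SD, n = 4 each), against 38.7 ± 14.9 CPM in P2 amacrine cells (n = 4). P5 bipolar cells held it at only 7.02 ± 2.40 CPM (n = 4). Grik5, which encodes a subunit that works together with the others, had means of a type and age between 18.7 and 61.1 CPM.

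Among the NMDA receptor genes Grin2b, a glutamate-binding subunit typical of young neurons, averaged 187 ± 154 CPM in amacrine cells (SD, n = 8). Grin1, the subunit that every NMDA receptor needs, averaged 31.9 ± 31.6 CPM there, and Grin2a, a subunit of more mature receptors, averaged 24.1 ± 37.1 CPM (SD, n = 8 each). Grin2c and Grin2d were low in all 6 common types, at or below 2.06 CPM in every mean.

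Of the metabotropic receptor genes, Grm7 and Grm8 both encode group III receptors that signal through inhibitory G proteins. Grm7 averaged 671 ± 238 CPM in progenitors, 520 ± 402 CPM in amacrine cells and 200 ± 78.5 CPM in neurogenic cells (SD, n = 8 each), and the progenitor and amacrine libraries overlapped. Grm8 averaged 351 ± 355 CPM in amacrine cells. Grm5, a group I receptor coupled to phospholipase C, averaged 197 ± 195 CPM in P5 bipolar cells (SD, n = 4) and 38.1 ± 38.4 CPM in P5 amacrine cells (n = 4).

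GABA-A receptor genes divided by cell type. Gabrr1, a rho subunit that forms the slowly closing GABA receptor of bipolar cell terminals, stood at 75.6, 95.2, 21.1 and 42.0 CPM in bipolar cells of the 4 P5 controls and at 2.63 CPM or less in every library of the other 5 common types. Gabrb2 and Gabrg3, a beta and a gamma subunit, averaged 127 ± 16.0 and 120 ± 26.6 CPM in P5 bipolar cells (SD, n = 4 each). Gabra5, an alpha subunit, was high in 3 types: 211 ± 45.2 CPM in P5 bipolar cells (n = 4), 160 ± 82.4 CPM in P2 cones (n = 4) and 241 ± 88.4 CPM in P5 cones (n = 2), and 92.1 ± 22.5 CPM in P5 rods (n = 4). It was low in amacrine cells, at 13.6 ± 9.40 CPM at P5 (n = 4), where Gabra2 averaged 119 ± 60.7 CPM.

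The glycine receptor alpha subunits Glra2 and Glra3, which bind glycine, were amacrine transcripts. Glra2 averaged 150 ± 103 CPM and Glra3 averaged 26.4 ± 34.7 CPM (SD, n = 8 each). The beta subunit Glrb, which anchors the receptor to the scaffold protein gephyrin, had another pattern and was highest in P5 progenitors, at 49.3 ± 4.61 CPM (n = 4), above P5 amacrine cells at 22.7 CPM on average.

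Low levels in the other types stood beside low levels of amacrine markers. The summed level of 8 amacrine marker genes ran from 94.3 to 277 CPM in control rods. Gria4 in rods stood at 24.1, 49.9, 15.7 and 5.49 CPM in the P2 controls and at 92.7, 17.6, 3.98 and 5.92 CPM in the P5 controls. The highest value at P2 was in replicate 2, with 804 amacrine cells, although replicate 1 had 6115, and the highest at P5 was in replicate 1, with 866, the most of the P5 controls. The part of free RNA and of doublets in such levels was not tested.

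Long genes held more of the counts. Across the 34 genes, the genomic span and the summed UMIs were correlated on a log2 scale (Pearson's r = 0.645, Spearman's rho = 0.615, n = 34 genes that share all libraries, given as a description). Gria4, Grm7 and Grik2 together held 64.9% of the 969389 UMIs of the set. Whether the authors counted intronic reads is not given in the sources used here, so the levels of different genes are not comparable per transcript.

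In the rare types levels rest on counts summed over all control libraries, with no test. In 77 control cells named starburst amacrine cells, the cholinergic type, the summed counts gave Grik2 at 2348 CPM (95% Poisson interval 2238 to 2462, counting error only), Gria4 at 1048 CPM and Gabra2 at 639 CPM. The same sums gave 931, 1721 and 218 CPM in the other amacrine cells. Grm3 stood at 364 CPM (interval 321 to 410) and Grm2, the other group II receptor, at 42.7 CPM (interval 29.0 to 60.6). Grin2c had 25 UMIs there, or 34.4 CPM. In the 39 cells named horizontal cells, Grik2 stood at 1530 CPM, Gria4 at 789 CPM, Grm8 at 548 CPM and Gria3 at 445 CPM.

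Levels of the members differed between the authors' 5 amacrine clusters. The means below pool both ages, and the clusters were built from the same counts. Differences between clusters are therefore descriptions without a test. In control libraries with at least 20 cells of the cluster, cluster 13 held Gria1 at 12.9 ± 9.22 CPM (SD, n = 6), against means of 57.7 to 324 CPM in the other 4. Glra2 averaged 12.5 CPM in cluster 13 and 162 to 207 CPM in the others. Cluster 13 was also lowest for Gria2 (42.2 CPM), Gria3 (4.12 CPM), Gria4 (668 CPM), Grin2b (25.4 CPM) and Glrb (0.691 CPM). It was not lowest for every member, since Grik3 averaged 48.6 CPM there and 27.4 CPM in cluster 7. Grik4, a kainate subunit that pairs with the main ones, averaged 156 ± 130 CPM in cluster 7 (n = 6) and 8.15 ± 3.04 CPM in cluster 6 (n = 8). Gabrb1 averaged 141 CPM in cluster 9, and Grm7 averaged 1872 CPM in cluster 17. Clusters 6 and 13 had low Gad1, a GABA-synthesising enzyme, at 2.43 and 2.44 CPM, and high Slc6a9, the glycine transporter, at 91.1 and 91.4 CPM. Gad2, the other such enzyme, was however present in both, at 409 and 280 CPM, against 183 CPM in cluster 9, where Gad1 was highest at 237 CPM. The make-up of the amacrine population varied between libraries: cluster 13 held 51.0% of the amacrine cells of P5 control replicate 3 and 42.8% of those of P5 combination replicate 1, but 7.16% to 9.09% in the other 3 P5 controls.

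**Figure D2:**
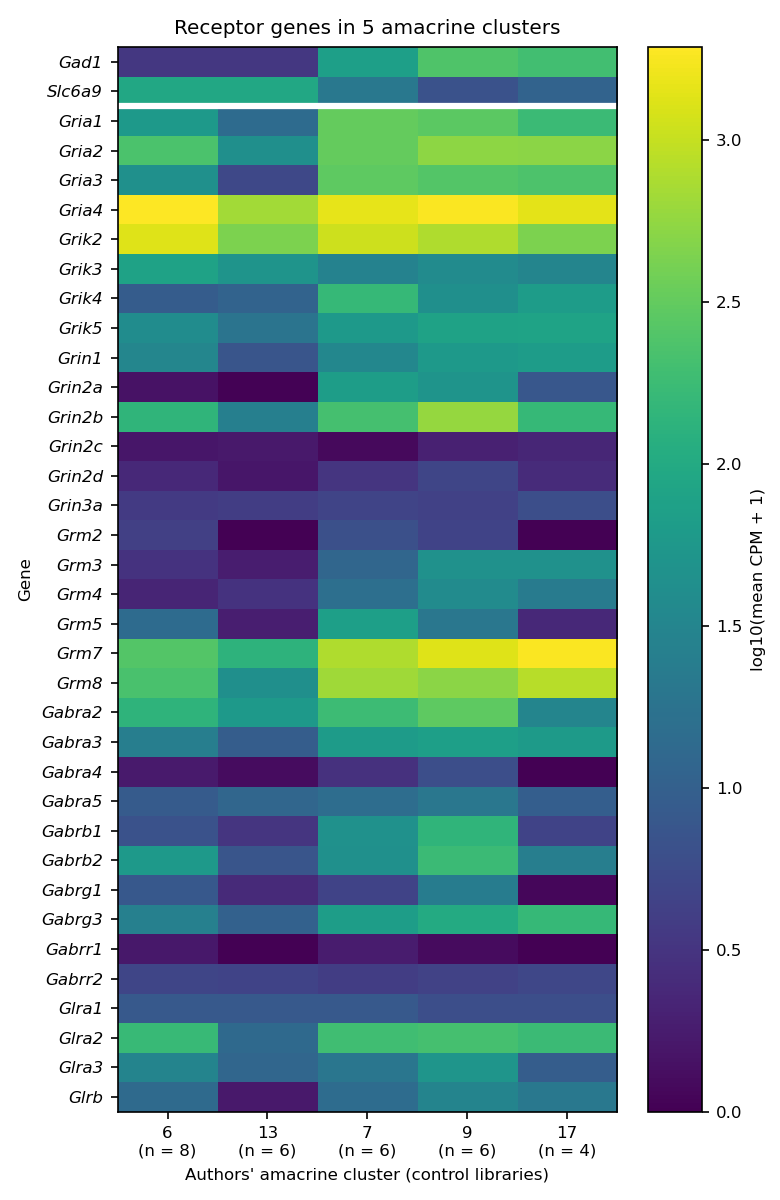
Mean level of Gad1, Slc6a9 and the 34 receptor genes (rows) in the authors' 5 amacrine clusters (columns, with n control libraries), as log10 of CPM plus 1. Cluster 13 is darkest for Gria1 and Glra2, and cluster 7 is brightest for Grik4.

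The first tested comparison was P5 against P2 in control libraries, within each cell type. The labels do not tell the animal's age apart from time in culture or since electroporation. Age below may stand for any of these. GFP in control rods ran from 5404 to 25631 CPM at P2 and from 2880 to 3479 CPM at P5, and was called lower (edgeR adjusted p = 0.0152). Of the 34 genes, 12 were called in at least 1 cell type by edgeR's quasi-likelihood test at an adjusted p under 0.05, making 17 calls of a gene in a type. In progenitors 9 of 26 tested members were called, where 17.5% of all 14849 tested genes were called. In neurogenic cells it was 7 of 23 against 9.27% of all genes, and in rods 1 of 30 against 13.2%. None of 32 tested members was called in amacrine cells, where 0.397% of all genes were called, and none of 9 in cones, where 0.0513% were called and no member had an unadjusted p under 0.05 in edgeR or a call in DESeq2. Log2 fold changes below are P5 less P2, with their standard error (SE), and come from counts scaled by edgeR's trimmed mean of M-values.

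In progenitors, 5 members were higher at P5 (Gria4, Grik4, Grin2b, Grm7 and Glrb) and 4 were lower (Grik2, Grik3, Grm8 and Gabra3). The median log2 fold change was 0.10 over the 26 members and -0.04 over all tested genes. These cells also differed in cell state between the ages: the summed level of 6 Müller glia marker genes ran from 1100 to 3208 CPM in the P2 control progenitors and from 8940 to 16527 CPM in the P5 ones, and all 6 were called higher. The P5 range lies above the 6554 CPM of the control cells named Müller glia. The libraries of the 2 ages were apart for 4 members that were higher and 4 that were lower at P5, of 31 members with at least 10 UMIs, where 15.9% of all genes were apart. The summed amacrine markers had a median of 60.0 CPM at P2 and 31.8 CPM at P5. The part of that shift in the receptor results was not tested.

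The 2 strongest rises were in Grin2b and Glrb. Grin2b (chromosome 6, 135713233 to 136173511, minus strand) stood at 3.90, 3.05, 2.62 and 1.26 CPM in progenitors of the P2 controls and at 42.1, 57.8, 40.7 and 56.1 CPM in those of the P5 controls. The ages did not overlap, and the lowest P5 library lay far above the highest P2 one. The log2 fold change was 4.16 (SE 0.46, edgeR adjusted p = 2.34e-05). Glrb (chromosome 3, 80843599 to 80913660, minus strand) stood at 12.8, 7.92, 11.4 and 8.94 CPM at P2 and at 48.4, 56.0, 46.9 and 45.8 CPM at P5. Its groups were also apart, and its log2 fold change was 2.26 (SE 0.21, edgeR adjusted p = 6.57e-06). In the 133 control cells named Müller glia, Glrb was at 10.6 CPM.

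Gria4 (chromosome 9, 4417896 to 4796234, minus strand), the AMPA subunit, stood at 195, 139, 93.9 and 95.9 CPM in P2 and at 262, 368, 366 and 460 CPM in P5 control progenitors. All P5 values were above all P2 values, and the log2 fold change was 1.49 (SE 0.28, edgeR adjusted p = 0.00208). Grik4 (chromosome 9, 42518135 to 42944493, minus strand) stood at 5.73, 6.29, 5.64 and 11.1 CPM and at 7.60, 26.2, 20.04 and 29.0 CPM. Here the groups overlapped, since P5 control replicate 1 was below P2 control replicate 4, and the log2 fold change was 1.504 (SE 0.45, edgeR adjusted p = 0.0279). Grik4 was no longer called in 5 of the 8 fits that left out 1 control library.

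Grm7 (chromosome 6, 110645581 to 111567230, plus strand), already high at P2 with 775, 409, 275 and 508 CPM, stood at 817, 847, 904 and 834 CPM at P5. The P5 libraries lay close together and above all P2 ones, and the log2 fold change was 0.82 (SE 0.22, edgeR adjusted p = 0.0171). The call was lost when P2 control replicate 2 or 3 was left out.

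The kainate subunit genes Grik2 and Grik3 went down. Grik2 (chromosome 10, 49094833 to 49788766, minus strand) stood at 173, 110, 73.7 and 104 CPM in P2 progenitors and at 28.0, 35.3, 59.3 and 51.8 CPM in P5 ones. Grik3 (chromosome 4, 125490700 to 125714173, plus strand) stood at 46.0, 24.4, 24.8 and 18.9 CPM and at 4.77, 9.01, 10.9 and 14.3 CPM. For both genes every P5 library was below every P2 library. The log2 fold change was -1.39 for Grik2 (SE 0.22, edgeR adjusted p = 0.000503) and -1.56 for Grik3 (SE 0.38, edgeR adjusted p = 0.00986).

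Grm8 (chromosome 6, 27275119 to 28135178, minus strand) was no longer called in 4 of the 8 fits that left out 1 control library. It stood at 11.8, 21.3, 73.7 and 12.2 CPM in P2 and at 13.9, 7.65, 6.59 and 4.99 CPM in P5 progenitors, so P2 control replicate 3 was far above the rest and the groups overlapped. The log2 fold change was -1.91 (SE 0.56, edgeR adjusted p = 0.0275). Without P2 control replicate 3 it was -0.79 and no longer called (edgeR adjusted p = 0.199). Leaving out P5 control replicate 2, 3 or 4 or fitting only the compared groups also lost the call. Gabra3 (chromosome X, 72432681 to 72656848, minus strand), an alpha subunit of the GABA-A receptor, fell from a low level, with 2.34, 1.62, 2.23 and 0.881 CPM at P2 and 0.217, 0.617, 0.607 and 0.312 CPM at P5. Its groups were apart, with a log2 fold change of -1.87 (SE 0.50, edgeR adjusted p = 0.0176), a call lost when P2 control replicate 3 or P5 control replicate 1 was left out. Without the P5 replicate 1 libraries 5 members were called in progenitors in place of 9. Grik3, Grm7, Gabra3 and Grm8 were not among them, with log2 fold changes of -1.37, 0.79, -1.73 and -2.30 on fewer libraries.

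**Figure D3:**
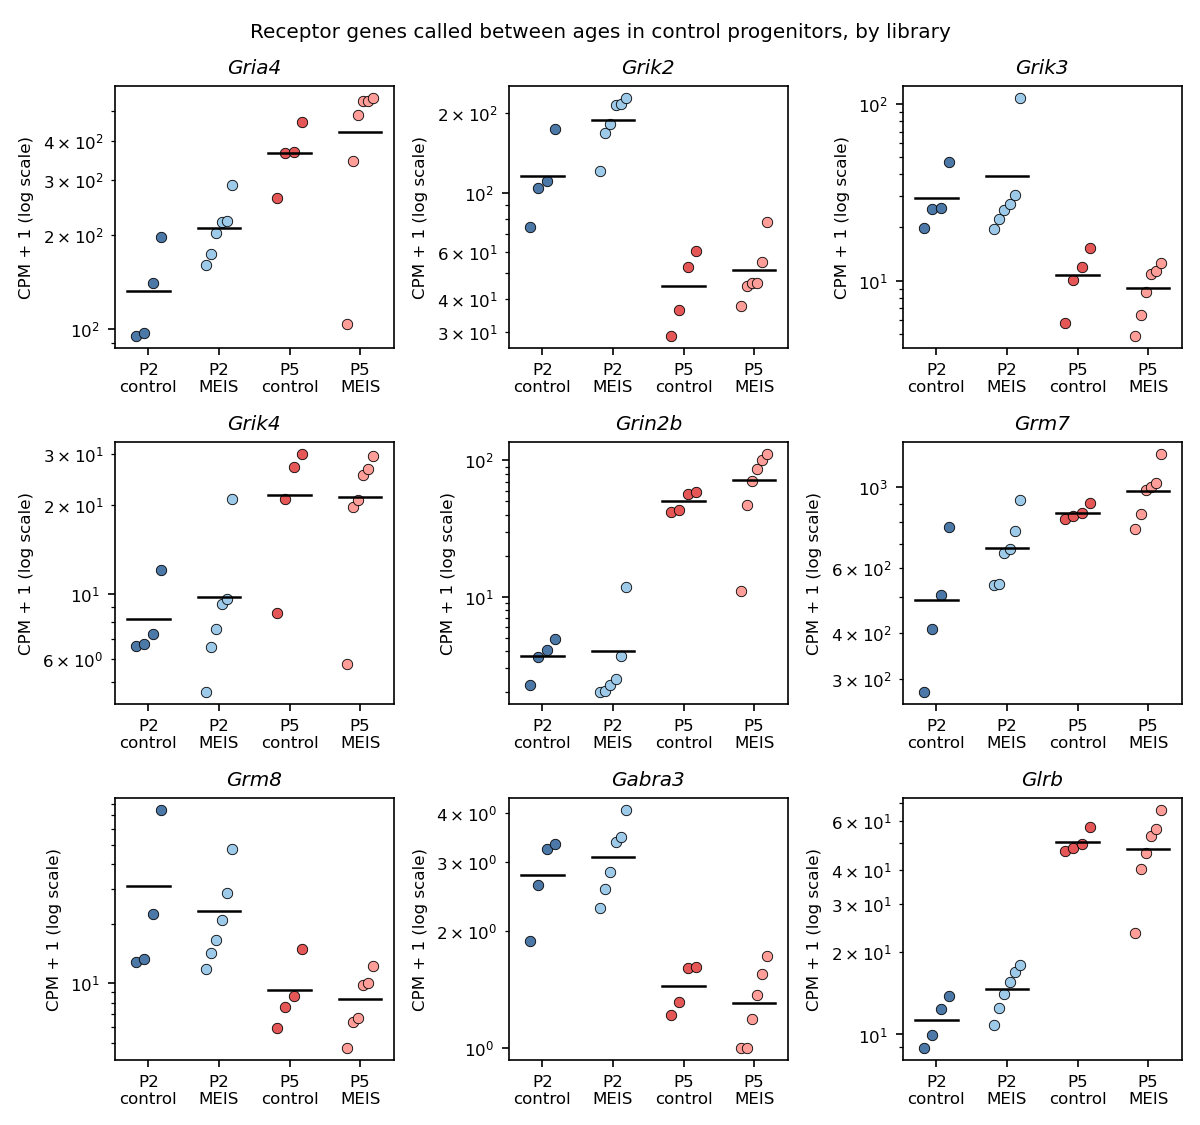
Levels of the 9 receptor genes called between P5 and P2 in control progenitors, as CPM plus 1 on a log axis, with 1 point per library for control (4 per age) and MEIS libraries (6 per age) and a bar at each mean. Grin2b and Glrb are apart between the ages in the controls, while Grm8 owes its high P2 mean to 1 control library.

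The 6 libraries per age with a MEIS1, MEIS2 or combination construct gave an age comparison that shares no library with the controls. Both age comparisons come from 1 fit per type. With the constructs 11 members were called in progenitors, against 29.9% of all genes, and they included all 9 of the control calls in the same direction. The share of all genes called in the controls that were also called there is not given here. The ages were apart for 4 of 31 members, Glrb higher and Grik2, Grik3 and Gabra3 lower, where 10.8% of all genes were apart. Grin2b had a lowest, median and highest level of 1.00, 1.38 and 10.8 CPM at P2 and of 10.0, 77.7 and 111 CPM at P5. The 2 ages overlapped narrowly, and the log2 fold change was 5.21 (SE 0.43, edgeR adjusted p = 8.6e-07). Glrb had 9.79, 13.8 and 16.9 CPM at P2 and 22.5, 48.5 and 65.1 CPM at P5 as lowest, median and highest, without overlap (log2 fold change 1.91, SE 0.18, edgeR adjusted p = 2.54e-06). Gria4 had a lowest P5 value of 103 CPM, below the P2 lowest of 159 CPM, so its groups overlapped, with a log2 fold change of 1.10 (edgeR adjusted p = 0.00222). The 2 members called here and not in the controls were Gabrg3, with a log2 fold change of -1.11 (edgeR adjusted p = 0.0121) and -0.49 in the controls, and Grm3, with 1.35 (edgeR adjusted p = 0.0148) and 1.06 in the controls.

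For 3 of the members called in progenitors the sequence before the start is set beside the results, because by the titles the constructs carry TALE homeodomain factors, whose core motif is TGACAG. The 250 bases before the RefSeq start are printed 5' to 3' on the gene's strand (build GRCm38.p6), with each match of TGACAG or of its reverse complement CTGTCA in capitals. The RefSeq promoter table has 2 entries for Gabra3, 3 for Grm8 and 1 each for Grik3 and Glrb. For Gabra3 and Grm8 the first entry that holds a match was taken, so these windows were picked for the motif. Gabra3 (chrX:72656920-72657169, minus strand) has 1 match that begins 21 bases before the start used. Grm8 has 1 that begins 217 bases before the start used, but its window overlaps the GENCODE span of the gene and is not printed. Grik3 (chr4:125490446-125490695, plus strand) and Glrb (chr3:80913661-80913910, minus strand), called in more than 1 cell type, have none in this window.
Gabra3: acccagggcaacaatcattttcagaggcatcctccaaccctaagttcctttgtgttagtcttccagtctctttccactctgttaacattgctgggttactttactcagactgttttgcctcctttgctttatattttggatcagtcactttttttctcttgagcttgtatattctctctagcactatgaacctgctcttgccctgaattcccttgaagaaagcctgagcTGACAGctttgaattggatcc
Grik3: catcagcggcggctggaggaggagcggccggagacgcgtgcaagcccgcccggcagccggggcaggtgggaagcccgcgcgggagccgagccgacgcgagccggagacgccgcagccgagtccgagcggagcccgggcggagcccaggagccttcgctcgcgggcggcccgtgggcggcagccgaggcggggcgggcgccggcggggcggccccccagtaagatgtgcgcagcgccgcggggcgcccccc
Glrb: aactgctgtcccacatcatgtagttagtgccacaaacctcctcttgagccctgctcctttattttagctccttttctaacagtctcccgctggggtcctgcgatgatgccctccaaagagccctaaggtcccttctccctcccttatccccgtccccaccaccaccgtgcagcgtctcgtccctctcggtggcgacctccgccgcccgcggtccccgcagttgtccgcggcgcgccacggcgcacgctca

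The RefSeq table held 33 promoters of 26 of the 34 genes, and for 23 of the 33 the 25 bases at the far end of the table's stretch after the start were found in a GENCODE transcript of the gene. TGACAG on either strand was in 7 of the 33 (21.2%), those of Gabra3, Gabrb2, Glra3, Grin2c, Grm2 and Grm8, and in 15.9% of all 32851 promoters of the table. The motif TTGGCA, again on both strands, was in 3.03% of the members' promoters and in 12.3% of all, and TAATCC was in 6.06% and 6.25%. A match is a description of the letters and not a bound site.

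In neurogenic cells, the progeny that have left or are leaving the cell cycle, 4 members were higher in P5 controls (Gria4, Gabra5, Gabrg3 and Glrb) and 3 were lower (Grik2, Grik3 and Gabra2). The median log2 fold change was 0.53 over the 23 tested members and 0.00 over all tested genes. The ages were apart for 6 of 32 members, where 11.7% of all genes were apart. The summed Müller glia markers ran from 404 to 614 CPM in P2 controls and from 2612 to 4419 CPM in P5 controls, and 4 of the 6 were called higher.

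Gabrg3 (chromosome 7, 56716465 to 57387188, minus strand), the gamma subunit, stood at 10.6, 7.15, 4.40 and 5.27 CPM in P2 and at 93.6, 59.6, 33.8 and 56.5 CPM in P5 control neurogenic cells. Every P5 library was above every P2 library, and the log2 fold change was 3.01 (SE 0.32, edgeR adjusted p = 1.34e-05). Gabra5 (chromosome 7, 57407672 to 57510059, minus strand), which lies next to Gabrg3 on the chromosome, stood at 5.71, 2.38, 3.20 and 3.51 CPM and at 36.0, 23.6, 10.1 and 14.6 CPM. Its groups were apart as well, with a log2 fold change of 2.36 (SE 0.54, edgeR adjusted p = 0.00861).

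Glrb stood at 2.32, 2.38, 1.60 and 2.42 CPM in P2 and at 6.51, 27.7, 13.8 and 11.5 CPM in P5 neurogenic cells, with a log2 fold change of 2.70 (SE 0.51, edgeR adjusted p = 0.00177). Gria4 stood at 42.2, 35.0, 31.2 and 17.3 CPM and at 51.9, 134, 92.6 and 106 CPM, with a log2 fold change of 1.54 (SE 0.38, edgeR adjusted p = 0.0148). Neither gene's ages overlapped, although the Gria4 call was lost when P2 control replicate 4 or P5 control replicate 2 was left out.

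The kainate genes Grik2 and Grik3 went down here as in progenitors. Grik3 stood at 129, 90.2, 76.7 and 104 CPM in P2 and at 27.8, 18.9, 17.2 and 27.9 CPM in P5 neurogenic cells, with a log2 fold change of -2.21 (SE 0.32, edgeR adjusted p = 0.000205). Grik2 stood at 135, 84.6, 72.7 and 96.6 CPM and at 46.7, 57.1, 57.5 and 51.6 CPM, with a log2 fold change of -0.94 (SE 0.17, edgeR adjusted p = 0.00128). Both were apart between the ages. Gabra2 (chromosome 5, 70957597 to 71095849, minus strand), an alpha subunit, stood at 10.7, 9.93, 5.19 and 2.85 CPM and at 3.04, 0.900, 1.23 and 0.608 CPM. Its groups touched, with P2 control replicate 4 below P5 control replicate 1, and its log2 fold change was -2.35 (SE 0.55, edgeR adjusted p = 0.00914).

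**Figure D4:**
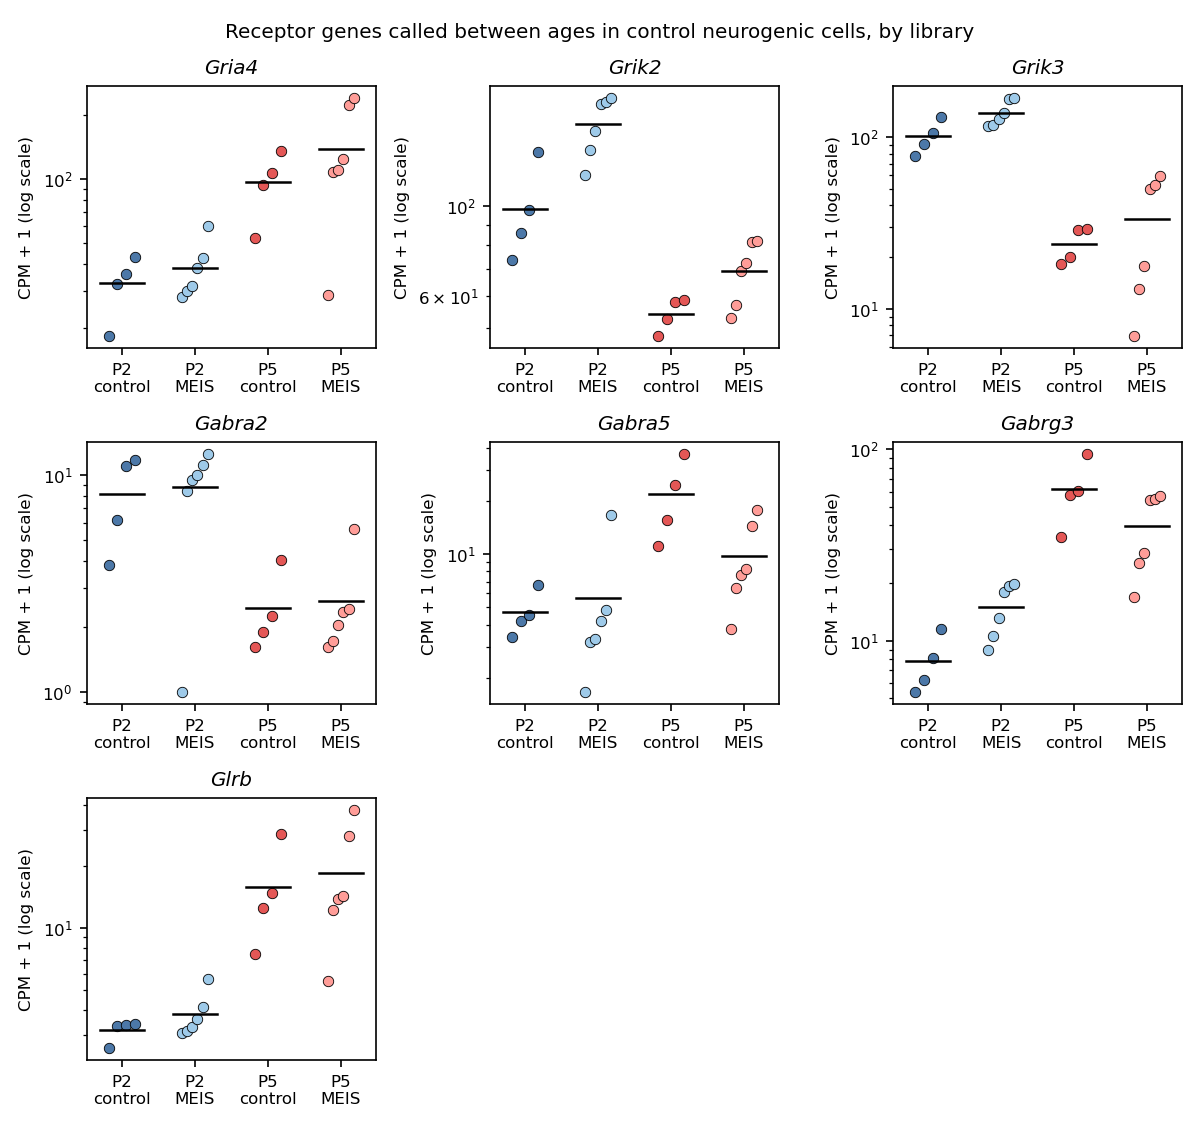
Levels of the 7 receptor genes called between P5 and P2 in control neurogenic cells, as CPM plus 1 on a log axis, with 1 point per library for control (4 per age) and MEIS libraries (6 per age) and a bar at each mean. Gabrg3, Gabra5, Glrb and Gria4 lie higher at P5 in the controls, and Grik2, Grik3 and Gabra2 lie lower.

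The MEIS libraries called 11 members in neurogenic cells, against 13.8% of all genes, and the 7 control calls were among them in the same direction. As in progenitors, the share of all control calls that were also called there is not given here. The ages were apart for 2 of 33 members, Grik2 and Grik3, both lower, where 4.74% of all genes were apart, so Gria4, Gabra5, Gabrg3 and Glrb overlapped between the ages. The rise of Gabrg3 had a log2 fold change of 1.57 there (SE 0.26, edgeR adjusted p = 0.000505), with a lowest, median and highest level of 7.95, 14.6 and 18.8 CPM at P2 and of 15.9, 40.6 and 56.1 CPM at P5. The 4 further calls were Gabrb2, Gria2, Grin2b and Grm3, all higher at P5. Grin2b had a log2 fold change of 2.99 there (edgeR adjusted p = 0.00618) and of 1.36 in the controls (edgeR adjusted p = 0.222).

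Within single clusters of the authors, chosen for this check after the type results were known, most of these calls held. In progenitor cluster 3, 6 of 20 tested members were called, with 17.6% of all genes: Gria4 (log2 fold change 1.41), Grik4 (1.36), Grin2b (4.33), Grm7 (0.76) and Glrb (2.55) were higher at P5 and Grik2 (-1.58) was lower. In neurogenic cluster 11, with 11% of all genes called, Gria4 (2.14), Grm7 (1.44), Gabrg3 (1.53) and Glrb (3.20) were higher and Grik2 (-1.0006) and Grik3 (-2.70) were lower, while Gabra5 was not called, with the opposite sign to the whole type (-1.10, edgeR adjusted p = 0.606). In neurogenic cluster 4, with 6.55% called, Gabra5 (2.89) and Gabrg3 (3.49) were higher, and Grik2 (-1.48), Grik3 (-1.90) and Gabra2 (-2.17) were lower. In the MEIS libraries progenitor cluster 3 had 5 members higher and 3 lower of 20 (24.6% of all genes called), neurogenic cluster 11 had 6 higher and 2 lower of 14 (18.1%), and neurogenic cluster 4 had 4 higher and 4 lower of 22 (8.64%). Grm7 was called there higher in cluster 11 (1.79) and lower in cluster 4 (-1.38).

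In rods, Grik3 was the only member called. The ages were apart for 3 of the 34 members, Gabrr1 higher and Grik3 and Grik5 lower at P5, where 14.5% of all genes were apart. Gabrr1 was very low there, with 20 UMIs (0.193 CPM) summed over all control rods, and it did not pass the filter on low counts in rods. Grik3 stood at 187, 173, 119 and 141 CPM in P2 and at 90.9, 109, 109 and 111 CPM in P5 control rods, so every P5 library was below every P2 library. The log2 fold change was -0.64 (SE 0.18, edgeR adjusted p = 0.0271), and -1.01 in the MEIS libraries (SE 0.15, edgeR adjusted p = 0.000169). The control call was lost in 5 of the 8 fits that left out 1 control library and without the trimmed-mean scaling, and without the P5 replicate 1 libraries (log2 fold change -0.56, edgeR adjusted p = 0.105). The rods also differed in cell state between the ages: the summed level of 8 rod markers ran from 904 to 2623 CPM in P2 controls and from 5882 to 10597 CPM in P5 controls, and all 8 were called higher. Of the neurogenic markers 4 of 7 tested were called lower, and of the amacrine markers 2 of 8, Gad2 and Onecut2. The part of that shift in the receptor results was not tested. In the MEIS libraries the ages were apart for Gabrr1 and Grik3 of the 34 members, in the same directions (7.95% of all genes). Gabrg3 had a log2 fold change of -0.68 in control rods (edgeR adjusted p = 0.0502), and it was called in the MEIS libraries, where 2 members and 22.1% of all genes were called, with -0.64 (edgeR adjusted p = 0.0183).

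Summed over the 34 genes, control amacrine cells had the highest mean level and the largest SD among the common types. Not every class followed, since GABA-A genes summed to 535 CPM on average in P5 control bipolar cells and 427 CPM in amacrine cells. Relative to the mean, the spread was not widest there: AMPA genes summed to 52.5 ± 74.0 CPM in P5 control rods and 2751 ± 1043 CPM in amacrine cells (SD, n = 4 each). In amacrine cells no member passed the adjusted threshold in the controls, and DESeq2 called none at its own. At an unadjusted p under 0.05 edgeR had 11 of the 32 members and 1166 of 13097 tested genes. The ages were apart for none of the 34 members and for 3.44% of all genes. The median log2 fold change was 1.03 over the 32 members and -0.00 over all tested genes. Grin1 stood at 13.7, 26.8, 3.63 and 6.09 CPM in P2 and at 93.7, 55.3, 8.09 and 47.8 CPM in P5 control amacrine cells, and the low P5 value was that of P5 control replicate 3. The log2 fold change was 2.03 (SE 0.62, edgeR adjusted p = 0.243). In the MEIS libraries, with 2.98% of all genes called, it was 2.18 (SE 0.53, edgeR adjusted p = 0.0367), and Glrb was the other member called, with 2.56 (SE 0.57, edgeR adjusted p = 0.0215). The ages were apart there for none of 33 members and for 1.96% of all genes. Markers differed between the ages in these MEIS amacrine cells too. Called lower at P5 were 2 of 7 tested amacrine markers (Gad2 and Tfap2a), 2 of 8 neurogenic ones (Atoh7 and Neurog2) and Slc1a3 of 5 Müller glia ones. In control amacrine cells none of these 3 lists had a call. The part of that shift in the receptor results was not tested.

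P5 control replicate 3 was also the lowest P5 control for Gria4 (1210 CPM), Grik2 (456 CPM), Glra2 (61.5 CPM) and Grin2b (38.8 CPM) in amacrine cells, and it was the library with 51.0% of its amacrine cells in cluster 13. Single amacrine clusters were therefore fitted as well. In cluster 6, 3 of 25 members were called, with 2.23% of all genes: Gria2 (log2 fold change 2.03), Grin1 (3.24) and Grin2b (2.73), all higher at P5. The MEIS libraries called 7 of 25 in cluster 6 (5.13% of all genes), with Grik2, Grik3, Grin1, Grin2b, Glra2 and Glrb higher and Gabra2 lower (-2.19). In cluster 7, with 2 P5 control libraries, 6 of 27 were called, with 4.90% of all genes, all higher: Grin1 (2.71), Grin2a (4.80), Gabra3 (2.40), Gabrg3 (4.20), Glra3 (3.30) and Glrb (2.94). None was called in cluster 9 (0.0283% of all genes) or in cluster 13 (0.0501%), where 15 and 2 members had an unadjusted p under 0.05 in edgeR. Both of these clusters also had 2 P5 control libraries. The shares of all genes at that unadjusted p are not given here.

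The age difference was not the same in all types, by a fit over pairs of types with the library as a block. Grik2 and Grik3 fell in progenitors and neurogenic cells, and the difference from amacrine cells was itself called: the age effect on Grik3 was 2.30 higher on the log2 scale in amacrine cells than in progenitors (SE 0.41, edgeR adjusted p = 0.00499) and 3.04 higher than in neurogenic cells. For Grik2 the difference was 2.39 against progenitors and 2.00 against neurogenic cells. In rods the fall of Grik3 was smaller by 0.89 than in progenitors and by 1.65 than in neurogenic cells. The share of all genes with such a difference was 4.34% for amacrine cells against progenitors, 1.71% for amacrine against neurogenic cells, 22.1% for rods against progenitors and 19% for rods against neurogenic cells. Of the tested members it was 5 of 32, 3 of 32, 6 of 30 and 6 of 28 in that order. In rods this was near the share of all genes. Between amacrine cells and rods 0 of 32 tested members differed in the controls, where 3.71% of all genes did. In the MEIS libraries it was 6 of 32, where 10.2% of all genes did.

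Between neurogenic cells and progenitors 4 of 25 tested members differed in their age effect in the controls, where 13% of all genes did. Gabra5 differed by 4.95 and Gabrg3 by 3.40, both higher in neurogenic cells, and Grin2b by -2.71. Grin2b also had a smaller age effect in rods (-3.92) and in amacrine cells (-3.42) than in progenitors. The age effect on Glrb was smaller in rods than in progenitors (-1.97) and than in neurogenic cells (-2.23). In the MEIS libraries the differences for Grik2 and Grik3 in amacrine cells, for Gabra5 and Gabrg3 between neurogenic cells and progenitors, and for Glrb in rods were called with the same sign, where the share of all genes called was 22.7% for neurogenic cells against progenitors, 10.4% and 5.49% for amacrine cells against progenitors and neurogenic cells, and 29% and 23.5% for rods against progenitors and neurogenic cells.

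**Figure D5:**
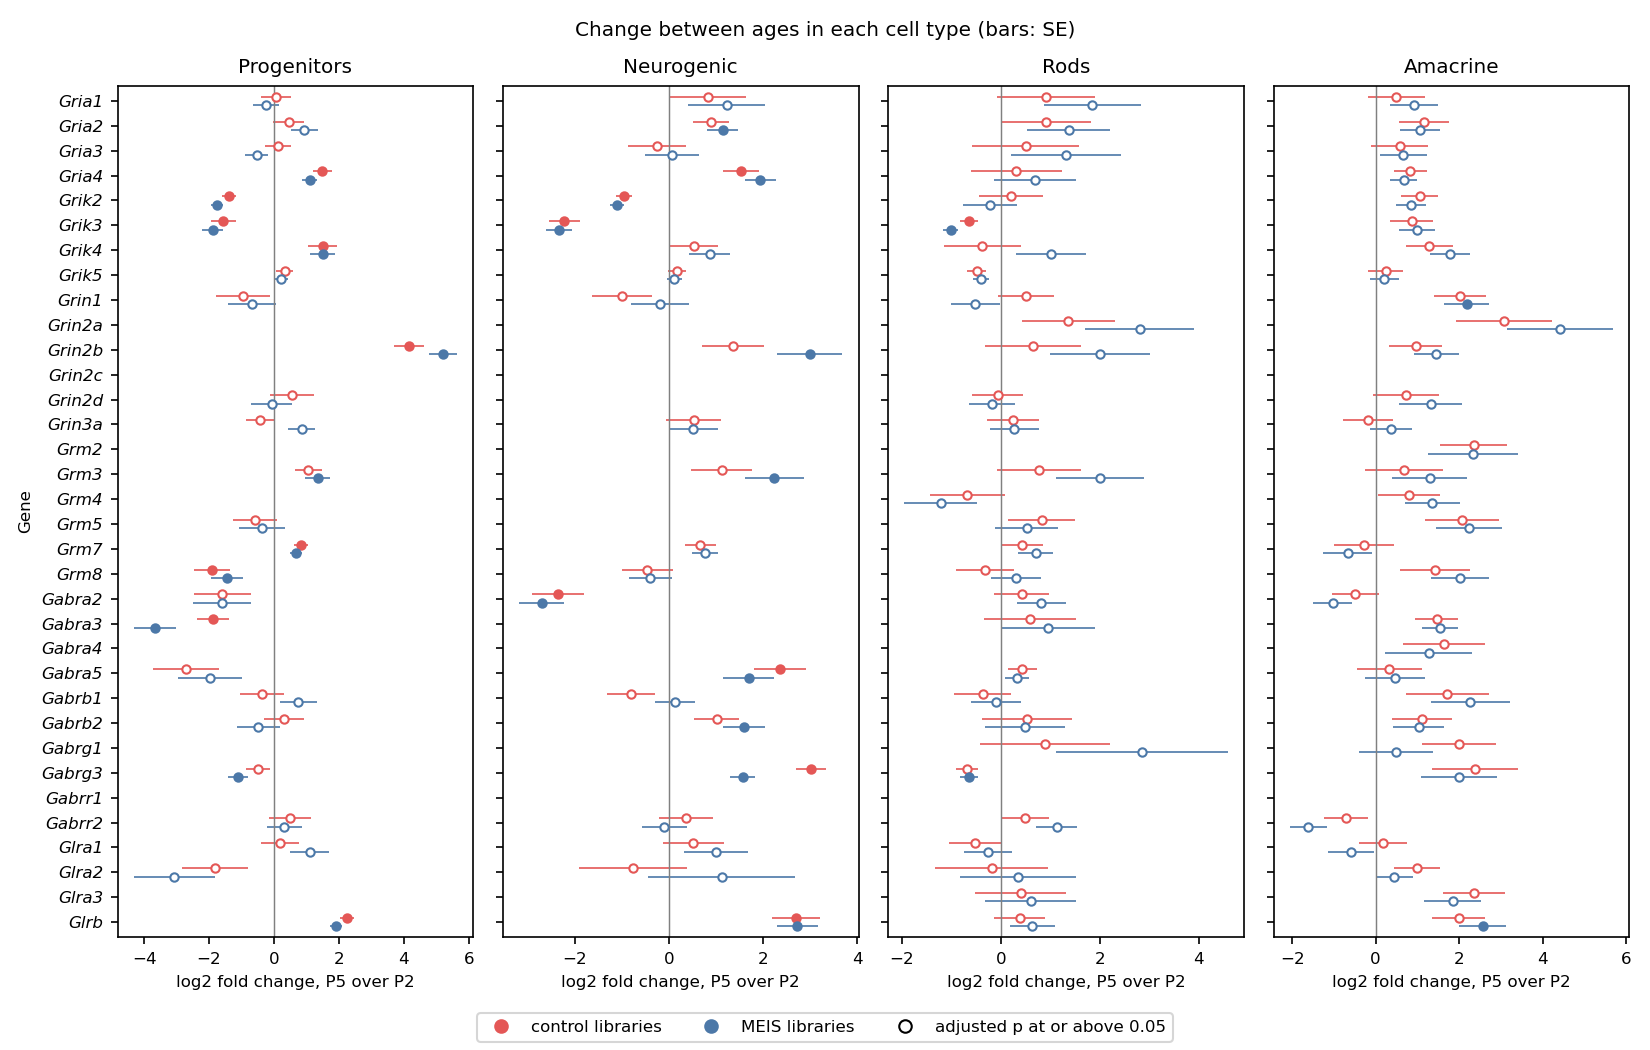
Log2 fold change of P5 over P2 for the receptor genes in 4 cell types, with 1 SE as bars, in control (red) and MEIS libraries (blue), from the edgeR fits, with open points for an adjusted p at or above 0.05. Grin2b is highest in progenitors, Gabra5 and Gabrg3 in neurogenic cells, and the kainate genes Grik2 and Grik3 lie below 0 in progenitors and neurogenic cells and above 0 in amacrine cells.

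Other genes of these receptor systems, from a list of 17 further genes, mostly subunits, were called in part in the controls. In control neurogenic cells 7 of the 10 tested were higher at P5 and none was lower, where 9.27% of all genes were called in either direction, among them the GABA-B subunit Gabbr2 (log2 fold change 1.36). In progenitors 2 of the 12 tested were higher, Grm6 among them, and Gabre (-2.43) was lower, with 17.5% of all genes called. In rods Grm6 was the only call among 13, with 13.2% of all genes called. In amacrine cells none of 12 was called, with 0.397% of all genes called. At an unadjusted p under 0.05 edgeR had 4 of them and 1166 of 13097 tested genes. Grm6, the receptor of ON bipolar cells, was at 0 in every P2 control library of progenitors, neurogenic cells and rods, and it reached no more than 1.60, 18 and 5.42 CPM in those types of the P5 controls, against a mean of 527 CPM in P5 control bipolar cells.

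Of 35 genes for receptor partners and synaptic scaffolds, 6 were higher in P5 control progenitors (33 tested) and 6 in P5 control neurogenic cells (31 tested), where 17.5% and 9.27% of all genes were called, so the share in progenitors is near that of all genes. In both types they included Cacng4 and Shisa9, which bind AMPA receptors, and Homer1, Nlgn3 and Shank2. In control rods, with 31 tested and 13.2% of all genes called, 3 were higher, Dlg2 (log2 fold change 3.20), Dlg4 (1.49) and Homer1 (0.89), and 5 were lower, Nlgn1 (-2.30), Grip1 (-1.22), Homer3 (-0.90), Dlg3 (-0.86) and Neto2 (-0.66). Dlg4 encodes the scaffold PSD-95, which photoreceptor terminals also hold. None of the 35 was called in control amacrine cells, where 0.397% of all genes were. At an unadjusted p under 0.05 edgeR had 8 of the 35 and 1166 of 13097 tested genes. With MEIS constructs, 8 of 33 tested were higher and 6 lower at P5 in progenitors, where 29.9% of all genes were called. In neurogenic cells 6 of 31 were higher and none lower (13.8% of all genes), and in rods 3 of 31 were higher and 6 lower (22.1%). Of the 35 tested in amacrine cells (2.98%), Shank3 was higher (log2 fold change 1.38) and Nlgn2 lower (-0.63).

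The second comparison was MEIS constructs against control within each age and cell type. With the 3 constructs pooled as 6 libraries, no member was called in 111 member tests at P2, where 0.00354% of all gene tests were called, nor in 136 at P5, where 0.00716% were. By type, the called share of all genes was 0.0135% in progenitors, the 2 genes being Meis1 and Meis2 themselves, and 0% in the other 3 types at P2. At P5 it was 0.0202% in progenitors, 0.00728% in neurogenic cells, 0.00748% in bipolar cells and 0% in rods and amacrine cells. At an unadjusted p under 0.05 edgeR had 6 and 9 of these tests, and DESeq2 called 1 and 0 at its adjusted threshold. Of all genes, edgeR had at P2 such a p for 1357 of 14849 in progenitors and 1477 of 13745 in neurogenic cells. In rods it was 1618 of 14786 and in amacrine cells 543 of 13097. At P5 the counts were 284, 225, 107 and 163 in that order, and 485 of 13365 in bipolar cells. Nor was any member called for a MEIS effect that differed between the ages (0 of 111, with 1 at an unadjusted p under 0.05 and 0% of all genes called). In no cell type were the control and MEIS libraries of a member apart at either age. Of all genes, 0.808% were apart at P2 in progenitors, 1.08% in neurogenic cells, 1.18% in rods and 0.877% in amacrine cells, and at P5 0.403% in progenitors, 0.474% in neurogenic cells, 0.261% in rods, 0.242% in amacrine cells and 0.541% in bipolar cells.

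The member nearest to a call at P2 was Grik2 in neurogenic cells. It stood at 135, 84.6, 72.7 and 96.6 CPM in P2 controls and at a lowest, median and highest level of 119, 165 and 184 CPM in P2 MEIS libraries. Of the 6 MEIS libraries, 5 were above all controls and 1 lay within their range. The log2 fold change, MEIS less control, was 0.50 (SE 0.16, edgeR adjusted p = 0.339). DESeq2 gave 0.49 (adjusted p = 0.0446), and without P2 control replicate 1, whose barcodes carry the start of a combination library, edgeR gave 0.63 (adjusted p = 0.0371). At P5 the lowest unadjusted p belonged to Gabra5 in neurogenic cells, with a log2 fold change of -1.47 (SE 0.46, edgeR adjusted p = 1). For the pooled contrast in progenitors at P2 the members' log2 fold changes ran from -1.32 to 0.65 with a median SE of 0.44. The lowest was that of Grin3a (SE 0.43, unadjusted p = 0.00681 and adjusted p = 0.474 in edgeR's quasi-likelihood test), which did not pass the adjusted threshold.

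With each construct fitted apart, on 2 libraries each, no member was called in 741 member tests over 27 fits, where 0.00554% of gene tests were called. Of the member tests 59 had an unadjusted p under 0.05 in edgeR, and the share of all gene tests at that level is not given here. Every call of a member that DESeq2 made for single constructs was in P5 bipolar cells with the MEIS combination. Grm5 stood at 103, 480, 43.5 and 164 CPM in P5 control bipolar cells, at 327 and 300 CPM with MEIS1, at 153 and 133 CPM with MEIS2, and at 1.36 and 8.41 CPM with the combination. Gabrr1 stood at 75.6, 95.2, 21.1 and 42.0 CPM in the controls and at 1.36 and 14.4 CPM with the combination. Both combination libraries were below all 4 controls for either gene. DESeq2 called Grm5 (log2 fold change -5.24), Gabrr1 (-2.70), Gabrb2 (-1.29), Grik2 (-1.57) and Grik3 (2.86) in this comparison. The shares of all genes that DESeq2 called, or that were apart in this way, are not given here. In edgeR, 9 of 25 tested members and 1576 of 13365 tested genes had an unadjusted p under 0.05 in this comparison. Combination replicate 1 had only 53 bipolar cells, and its Grik3 level was 85.8 CPM against 17.1 CPM in replicate 2 and at most 9.80 CPM in the controls. Grm6 stood at 0 and 227 CPM in the combination libraries against 407 to 728 CPM in the controls, and the summed level of 8 bipolar markers was 1631 and 2098 CPM against 2413 to 4438 CPM. The part of the bipolar cells' make-up in these values was not tested. In P5 amacrine cells with the combination, 10 of 32 tested members and 764 of 13097 tested genes had an unadjusted p under 0.05 in edgeR. The median log2 fold change there was -1.71 over the members and -0.03 over all tested genes. Cluster 13 held 42.8% of the amacrine cells of P5 combination replicate 1, and the part of that make-up was not tested.

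Of the 34 genes, 16 were called between the ages in at least 1 type and 18 in none, and 1 of those, Grin2c, passed the filter on low counts in no type. Gabrr1 passed it only in bipolar cells, which had no test between the ages. In the controls 17 of 120 member tests were called, with 9.44% of all gene tests. In the MEIS libraries it was 26 of 111, with 17.7% of all gene tests. The share of all genes called in at least 1 type is not given here. By the main edgeR fits of whole types, the genes not called between the ages were Gria1 and Gria3 among the AMPA genes, Grik5 among the kainate genes, Grin2a, Grin2c, Grin2d and Grin3a among the NMDA genes, Grm2, Grm4 and Grm5 among the metabotropic ones, Gabra4, Gabrb1, Gabrg1, Gabrr1 and Gabrr2 among the GABA-A ones, and Glra1, Glra2 and Glra3 among the glycine receptor genes. Gabra5 in progenitors was apart between the ages without a call, at 5.92, 3.65, 2.62 and 4.41 CPM in P2 controls and at 1.30, 0.123, 0.781 and 0.312 CPM in P5 controls. Its log2 fold change of -2.70 had the opposite sign to that in neurogenic cells.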

How the data were processed

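Per the file headers, the deposited matrix gives unnormalized UMI counts of each gene in each cell, and the authors also deposited each cell's type, cluster, total and percent of mitochondrial counts. Reads were processed with Cell Ranger and Seurat 5 on a modified mm10 genome, per the submitters' processing notes. Whether intronic reads were counted is not given in the sources used here. The 34 genes and the lists of related genes and markers were chosen with earlier results of these data known. Gene positions come from GENCODE vM21.

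Counts were summed per library and cell type with at least 20 cells. Groups with at least 2 libraries were compared with edgeR 4.0.16 in R 4.3.3: low counts were filtered, libraries were scaled by the trimmed mean of M-values, all groups of a type shared 1 quasi-likelihood fit, and p-values were adjusted over all tested genes by the Benjamini-Hochberg method. The fit was tested on simulated counts of control rods. DESeq2 1.42.0 was an alternative. CPM use the plain total. Members called in a type between the control ages, or in a MEIS comparison, were to be given in full, and other genes of the pathway by count with those called named, some of which are not reported here.

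Scrublet, run through scanpy 1.11.5, marked 3256 cells (4.12%) as doublets, which were kept. It marked under 0.5% of the cells in 7 libraries, among them P5 control replicate 1 (2 of 6292) and P2 control replicate 2 (9 of 4712), and is taken not to have worked in P5 control replicate 1. Replicate numbers were shared between groups. They were not used as a block, since not every pair of same-numbered libraries deviated together.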

Additional observations from a re-analysis of the deposited data

Results flagged for a closer look

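Within the 4 control libraries of an age, 5 of 52 sets of 4 values that were looked at had a single library apart from the other 3 by Dixon's criterion at 95%, which chance alone reaches in about 1 set of 20. These were Gabrg3 in P5 progenitors, where replicate 3 was highest at 21.9 CPM, and Glrb in P2 neurogenic cells, where replicate 3 was lowest at 1.60 CPM. Grik3 in P5 rods had replicate 1 lowest at 90.9 CPM, Grik4 in P2 progenitors had replicate 4 highest at 11.1 CPM, and Grm8 in P2 progenitors had replicate 3 highest at 73.7 CPM.

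For members called in at least 1 of 2 types, the age effect differed between the types in 18 cases in the controls, by the edgeR fit over both types with the library as a block. These members were chosen by calls in the same libraries, so the cases are a list and not a further test. Over all tested members the counts were 4 of 25, 6 of 30, 5 of 32, 6 of 28 and 3 of 32 in the order below. The shares of all genes were 13%, 22.1%, 4.34%, 19% and 1.71%. On the log2 scale, neurogenic cells less progenitors gave 0.98 for Grm8, -2.71 for Grin2b, 3.40 for Gabrg3 and 4.95 for Gabra5. Rods less progenitors gave -1.97 for Glrb, 0.89 for Grik3 and -3.92 for Grin2b. Amacrine cells less progenitors gave 2.96 for Gabra3, 2.30 for Grik3, -3.42 for Grin2b and 2.39 for Grik2. Rods less neurogenic cells gave -2.23 for Glrb, 1.65 for Grik3, 2.83 for Gabra2, -3.64 for Gabrg3 and -1.72 for Gabra5, and amacrine less neurogenic cells gave 3.04 for Grik3 and 2.00 for Grik2.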

How the results depend on the processing

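The 17 control age calls came to 13 to 19 when 1 library was left out, and the 26 in MEIS libraries to 19 to 26. By type the controls gave 6 to 9 calls in progenitors, 6 to 7 in neurogenic cells, 0 to 2 in rods and 0 to 1 in amacrine cells. Leaving out the P5 replicate 1 libraries gave 5 in progenitors, and Grik3 was no longer called in rods. In rods, DESeq2, no filter on low counts, the replicate block, removal of doublets and groups read from the barcode start each gave 2 in place of 1, and no trimmed-mean scaling gave 0. In amacrine cells, cluster 6 alone gave 3 and cluster 7 alone gave 6 in place of 0, the fits by cluster having been added after seeing the data. In neurogenic cluster 11 alone the age effect on Gabra5 was -1.10 on the log2 scale, the reverse of the whole type. The cause was not tested. For MEIS constructs pooled at P2, DESeq2 called 1 member in place of 0, and leaving out a library gave 0 to 1. At P5 and for the difference between ages that range was 0 to 0. For single constructs DESeq2 called 5, no filter 4 and the replicate block 4 in place of 0, and leaving out a library gave 0 to 8. The block called Grm5, Gabrr1 and Gria1 (log2 fold change -4.79, edgeR adjusted p = 0.0233) in P5 bipolar cells and Gabrg3 (-1.81, edgeR adjusted p = 0.0171) in P5 neurogenic cells, all lower with the combination. The shares of all genes called for single constructs under these alternatives are not given here. The 8 came from leaving out P5 combination replicate 2, which leaves 1 library with 53 bipolar cells that is assumed to vary like the other groups. The number of genes highest in amacrine cells was 21 to 22. Same-numbered libraries of 2 groups had deviations correlated between -0.264 and 0.684 in progenitors and rods, so not every pair deviated together, and the labels give no shared source. The 4 P5 replicate 1 libraries did share high medians of mitochondrial UMIs per cell, 6.93% to 10.6%, against 3.36% to 5.11% in the other P5 libraries. The replicate block gave 18 control age calls. In cones, with 2 P5 control libraries, the SE of the 9 members ran from 0.50 to 0.86, so only large changes could be called. Starburst, horizontal and Müller glia cells had no test.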
